A study of Mus musculus with 24 samples.

Results

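Transcripts of coagulation factors and complement proteins were measured before and after blood loss in male Erfe-/- mice, in the liver and in the bone marrow. The members were 34 genes listed by symbol, and 32 of them carry that symbol in the scanner files, out of 37008 distinct gene names on the array. The symbols C5 and C1s were not found; the array names these genes Hc and C1s1, and their values are given with the other complement genes. Of the 32, all were measured in liver and 16 passed the filter on low signal in marrow.

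Every mouse is labelled Erfe-/-. Erfe encodes erythroferrone, an erythroblast hormone that lowers hepcidin after bleeding, and no mouse with intact Erfe was included. Mice were bled through the retro-orbital sinus and studied at 24 or 48 h, and the mice at 0 h are labelled as controls. There were 4 mice per tissue at each time, and liver and marrow were each measured on 1 single-colour Agilent array per sample, which gives 24 arrays. The labels give neither the age of the mice nor the volume of blood drawn, and they do not say whether liver and marrow with the same replicate number came from the same mouse. The p-values measure the spread between these samples, and the number of arrays limits the precision.

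Coagulation factors and complement proteins include many circulating zymogens that cleave one another in cascades. Hepatocytes secrete most of them, while von Willebrand factor comes from endothelial cells and megakaryocytes, tissue factor and thrombomodulin sit on cell surfaces, and factor D is best known as a product of fat cells. Fibrinogen and several complement components are also acute phase proteins, whose synthesis in liver rises with inflammation and injury.

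A level here is a log2 signal from which the array's own 75th percentile has been subtracted, and a change is a difference between such levels. That percentile lay between 354.1 and 466.7 intensity units in liver and between 693.8 and 941.8 in marrow, and 28014 to 35700 of 56605 probes were well above background on an array. Neither of the 2 Erfe probes (mm9 chr1:93270468-93270527 and chr1:93267977-93268036) was above background on any of the 12 livers. In marrow 1 of them was above background on 1 of 12 arrays, 24 h replicate 2, at a level of -2.60 against at most -6.81 on the other 11; whether the probes lie in the deleted segment is not stated. All 15 hepatocyte markers were above background in liver, and all 8 neutrophil and 8 red cell markers were above background in marrow. Marrow 24 h replicate 2 stood apart from the other 11 marrow arrays in carrying liver transcripts. There all 31 members with a value were above background (C8a had none), 26 were higher than on every other marrow array, and the median member reached 8.79% of its mean liver level, against 0.0510 to 0.110% on the others. That array was left out of all marrow results below.

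In unbled mice most members were far higher in liver, and 3 were higher in marrow. Relative to the percentile of its own array, every member differed between marrow and liver in limma at an adjusted p under 0.05 (32 of 32), with 29 lower and 3 higher in marrow. Such differences were common, since 80.8% of all 22033 genes tested passed, 40.7% lower and 40.2% higher, and 81.8% had an unadjusted p under 0.05. The groups did not overlap for any of the 32 members, against 77.1% of all genes, 38.8% lower and 38.3% higher. A probe needed to be above background throughout only 1 tissue. For members that passed through liver alone, a lower marrow value was thus largely fixed by the filter, and their calls are no support for it. With every array above background, 15 members were tested and all 15 were called, 3 of them higher in marrow. The median difference over the members was -10.58, against -0.02 over all genes. Over the 15 members above background on every array it was -4.43, against -0.15 over all genes so filtered. With normexp background correction, which lifts dim signals, the median over all 32 members was -7.65. The folds below thus depend on how dim marrow signals are treated. The same 3 members were higher in all 19 alternatives.

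Nearly all secreted factors of the liver were far lower in marrow. In unbled marrow 12 of the 32 were not well above background on any of the 4 arrays, so that only a bound can be given. Levels in marrow were at least 6820-fold lower for Cfi, the protease that inactivates C3b and C4b, and at least 6520-fold lower for Mbl2, a mannose-binding lectin. The bound was at least 3990-fold for Serpind1, 2860-fold for C8b, 2150-fold for C8a, 1460-fold for Klkb1, 1080-fold for Masp2, 782-fold for F9, 652-fold for F11, 650-fold for F13b, 636-fold for Masp1 and 379-fold for Plg. Adjusted p-values in limma for these 12 genes ran from 3.45e-11 to 2.00e-08. All 12 passed the filter through liver alone, so a lower marrow value was largely fixed in advance and these p-values add no support. F12 was above background on 3 of the 4 marrow arrays, F7 and Proc on 2, and Mbl1 and C9 on 1. F2, Serpinc1, Serpinf2 and C6 were above background on all 4 and lower by a fitted -13.16, -12.90, -11.35 and -7.12. A second Serpinc1 probe, far dimmer in liver with a mean of -2.08, gave a difference of only -2.44.

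A smaller set had a clear level in marrow too. Vwf, the platelet adhesion protein, had marrow values of 2.93, 3.45, 2.83 and 3.35 against 0.71, 0.35, 0.87 and 0.19 in liver, a difference of 2.61 (SE 0.20, limma adjusted p = 2.96e-06). All 4 marrow arrays lay above all 4 livers. Thbd, the endothelial receptor that redirects thrombin to protein C, stood at 1.42 ± 0.06 in marrow and -1.01 ± 0.38 in liver (SD, n = 4), 2.43 higher. Cfd, the protease that starts the alternative pathway, stood at 2.59 ± 0.61 and -2.31 ± 0.86, 4.90 higher, also without overlap. Megakaryocyte and platelet markers moved the same way as Vwf: all 9 were called higher in marrow, with a median difference of 7.01, and of the 10 endothelial markers 2 were called higher and 8 lower. Their part in the result was not tested. In whole tissue, more cells of a type and more RNA per cell cannot be told apart.

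Among members lower in marrow, the smallest differences belonged to F8 (-2.02), the cofactor of factor IX, Pros1 (-2.11), the cofactor of activated protein C, F3 (-2.67), which encodes tissue factor, and F5 (-3.12), the cofactor of factor X. F10 itself was 4.43 lower, from 7.39 ± 0.09 in liver to 2.96 ± 0.33 in marrow, and remained above background on all 11 marrow arrays. C1ra and C2, early proteases of the classical pathway, were 5.09 and 4.85 lower. Kng1, which encodes kininogen, was 7.21 lower and still at 2.29 ± 0.13 in marrow. Mice carry a close copy, Kng2, and cross-hybridisation was not tested. Over the 11 marrow arrays, 14 members were above background on all, 4 on 6 to 10, 8 on 1 to 3 and 6 on none.

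**Figure D1:**
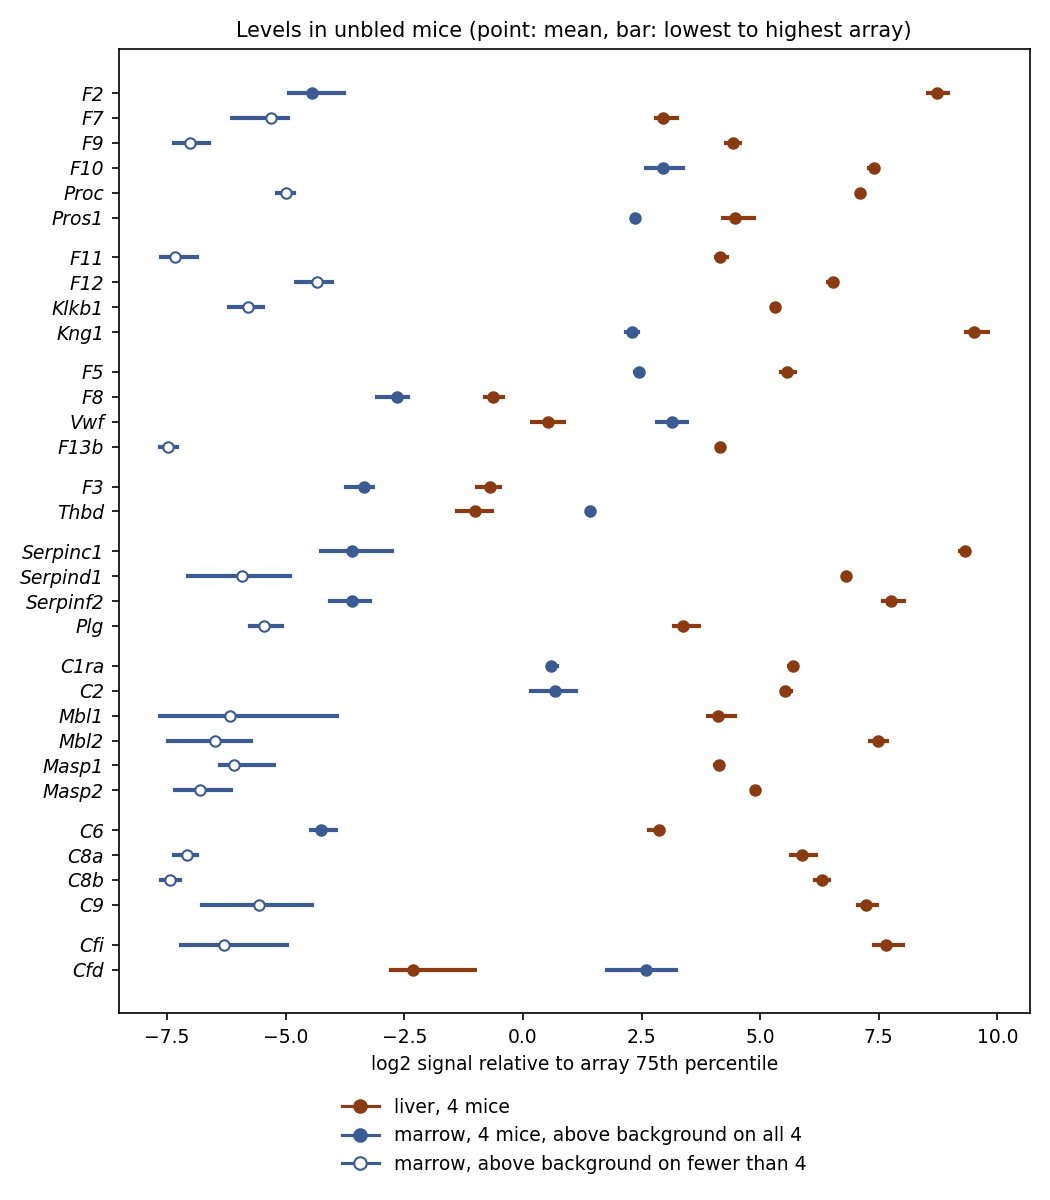
Levels of the 32 members in unbled mice, as log2 signal relative to the array's 75th percentile on the horizontal axis, with 1 row per gene; points are means of 4 arrays, bars run from the lowest to the highest array, and open symbols are marrow means where the gene was above background on fewer than 4 arrays. Only Vwf, Thbd and Cfd lie to the right of their liver value, and levels should be compared within a row, not between rows.

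Promoters are shown here because the members differ so widely between the tissues. RefSeq promoters in build GRCm38.p6, from 250 bases before to 50 after the annotated start, were matched by symbol for 24 of the 34 members. GC content had a median of 45.3% in the 11 members above background on 0 to 3 marrow arrays, and of 56.5% in the 10 above background on all 11; over the 27025 genes in the table it was 52.8%. These are descriptions with no test, and the sets overlap, from 32.7 to 57.0% against 41.3 to 70.3%. The sequences are the 250 bases before the start, 5′ to 3′, for 4 members that were above background on at most 1 of the 11 marrow arrays, followed by Pros1, which was above background on all. Only windows with a match are printed. C8a, C8b, Masp2 and Mbl2, also above background on at most 1 marrow array, had no match to any motif searched. Capitals mark matches, on either strand, to the C/EBP motif TTGCNNAA in F9, to the FOXA motif TGTTTAC and the C/EBP motif in F11 and Klkb1, to the HNF1 motif in F13b and to the STAT motif TTCCNGGAA in Pros1.
F9, chrX:59999214-59999463, plus strand: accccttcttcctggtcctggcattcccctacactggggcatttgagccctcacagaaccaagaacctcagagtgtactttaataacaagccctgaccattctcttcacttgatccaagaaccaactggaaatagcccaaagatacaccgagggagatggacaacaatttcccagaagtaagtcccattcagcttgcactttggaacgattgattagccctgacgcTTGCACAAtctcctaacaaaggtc
F11, chr8:45262032-45262281, minus strand: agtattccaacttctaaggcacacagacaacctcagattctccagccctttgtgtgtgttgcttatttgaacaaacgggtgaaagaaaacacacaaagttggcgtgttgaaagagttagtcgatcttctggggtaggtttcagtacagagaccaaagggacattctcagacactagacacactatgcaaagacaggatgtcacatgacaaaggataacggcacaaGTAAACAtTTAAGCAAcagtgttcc
Klkb1, chr8:45294836-45295085, minus strand: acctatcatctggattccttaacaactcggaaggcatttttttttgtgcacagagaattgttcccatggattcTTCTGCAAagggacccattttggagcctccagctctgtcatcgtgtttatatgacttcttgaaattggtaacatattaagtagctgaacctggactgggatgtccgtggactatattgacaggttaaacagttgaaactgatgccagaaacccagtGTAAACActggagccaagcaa
F13b, chr1:139501457-139501706, plus strand: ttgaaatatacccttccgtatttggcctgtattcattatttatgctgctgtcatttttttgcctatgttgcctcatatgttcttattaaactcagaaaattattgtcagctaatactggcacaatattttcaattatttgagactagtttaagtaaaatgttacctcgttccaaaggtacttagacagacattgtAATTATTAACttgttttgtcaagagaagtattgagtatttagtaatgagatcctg
Pros1, chr16:62854057-62854306, plus strand: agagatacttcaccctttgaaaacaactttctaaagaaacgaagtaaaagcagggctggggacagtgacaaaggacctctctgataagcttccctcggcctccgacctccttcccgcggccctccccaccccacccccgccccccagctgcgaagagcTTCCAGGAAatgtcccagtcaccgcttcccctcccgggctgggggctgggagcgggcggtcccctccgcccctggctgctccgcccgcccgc
The matches began 24 bases before the start in F9, 25 (FOXA) and 17 (C/EBP) in F11, 21 (FOXA) and 177 (C/EBP) in Klkb1, 55 in F13b and 92 in Pros1. F11 and Klkb1 are neighbours on chromosome 8, and both windows hold a FOXA and a C/EBP match, which do not overlap each other.

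Over the full windows the C/EBP motif was found in 6 of 24 members (25.0%) and in 12.2% of all genes. The members were C1ra, C9, F11, F9, Klkb1 and Serpinc1, of which C1ra and Serpinc1 were above background on all 11 marrow arrays. FOXA was found in 2 members (8.33%, against 4.05%), HNF1 in 1 (4.17%, against 0.470%) and STAT in 1 (4.17%, against 1.35%). The HNF4 motif CAAAGTCCA was in 0 members and 0.555% of genes. The TATA motif TATAAA was in 2, F3 and Klkb1 (8.33%, against 15.7%). A match gives only the presence of these letters in the window.

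After bleeding, the liver transcripts of the members were for the most part within 1.5-fold of their levels at 0 h. At 24 h limma called 0 of the 32 members at an adjusted p under 0.05, and 0% of the 19639 genes tested were called. At an unadjusted p under 0.05 there were 3 members and 11.2% of all genes. Serpind1 was the only member whose 4 arrays at 24 h did not overlap those at 0 h, higher in its case, against 2.10% of all genes higher and 5.76% in either direction. The estimates were above 0 for 18 members and below 0 for 14, with a median of 0.03 against -0.03 over all genes; under quantile normalization the split was 22 to 10.

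At 48 h 0 of 32 members were again called, with 0% of genes called. Only Vwf had an unadjusted p under 0.05, a rate of 1 in 32 members against 6.55% of all genes, and no member's groups were free of overlap, against 4.34% of genes. At 48 h the estimate was above 0 for 23 members, with a median of 0.04 against -0.02 over all genes. Between 48 and 24 h 0 members were called, beside 0% of genes, and C6 alone had an unadjusted p under 0.05, against 7.67% of genes; 0 members were free of overlap, against 3.73%. Both later times share the mice at 0 h, so their changes are not independent.

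Most changes were small in size. At 24 h the change was under 0.2 in either direction for 24 of 32 members and at 48 h for 27, against 71.7 and 78.9% of all genes. The 95% interval of the change lay within 1.5-fold either way for 25 members at 24 h and 28 at 48 h, beside 72.0 and 76.0% of all genes. Cfd was the 1 member whose interval reached beyond 2-fold at both times. These shares are close to those of all genes.

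**Figure D2:**
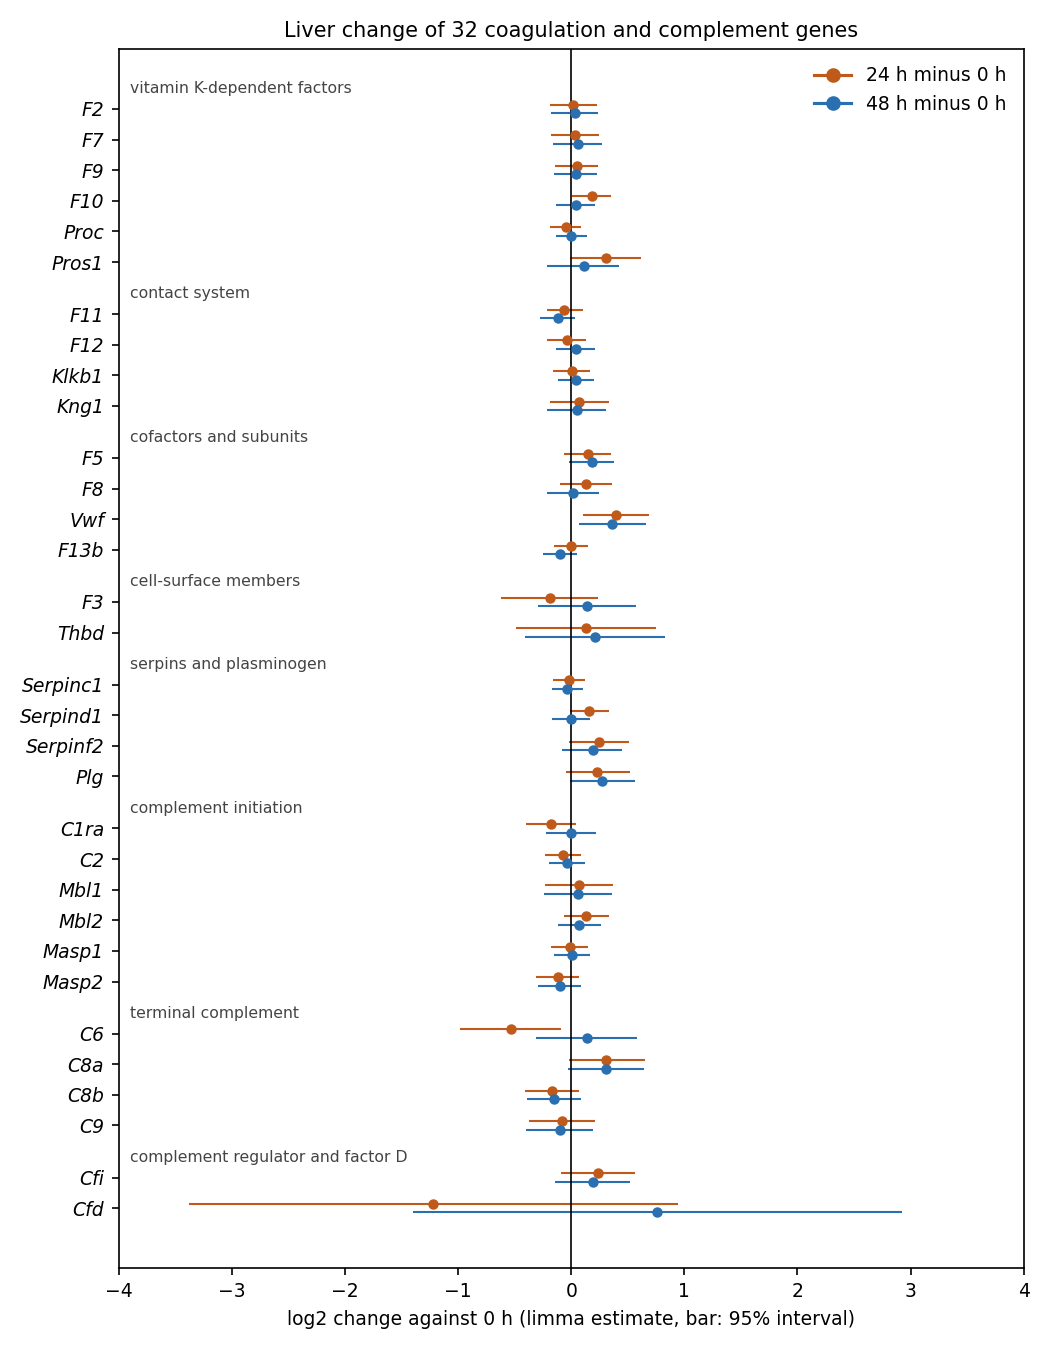
Change in liver of each of the 32 members against 0 h, as limma estimates on the log2 scale on the horizontal axis, at 24 h (orange) and 48 h (blue), with 95% intervals as bars; each estimate compares 4 mice with 4. Intervals of F10, Vwf and C6 at 24 h and of Vwf at 48 h leave out 0, although none passed the adjusted threshold, and Cfd has by far the widest interval.

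The vitamin K-dependent factors, proteases and cofactors that bind membranes through gamma-carboxylated residues, numbered 6. At 24 h 5 estimates were above 0 and 1 below, from -0.05 for Proc, which encodes protein C, to 0.31 for Pros1. At 0 h F2 was at 8.95, 8.72, 8.67 and 8.54, and F7 at 3.25, 2.80, 2.94 and 2.84. Replicate 1 was the highest in both. F2, which encodes prothrombin, differed by 0.02 at 24 h (95% interval -0.19 to 0.23) and 0.03 at 48 h (-0.18 to 0.24). F9 differed by 0.05 and 0.04, and F7, the protease that pairs with tissue factor, by 0.03 and 0.06.

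F10, at which the intrinsic and extrinsic routes meet, had liver values of 7.49, 7.29, 7.43 and 7.36 at 0 h, and of 7.66, 7.63, 7.44 and 7.56 at 24 h (probe at mm9 chr8:13055774-13055833). Of the 4 arrays at 24 h, 3 lay above every array at 0 h and replicate 3 fell among them. The change was 0.18 (SE 0.08), with limma adjusted p = 0.425 and exact two-sided permutation p = 0.0571, where 4 against 4 arrays can give no less than 0.0286. At 48 h its values were 7.35, 7.56, 7.35 and 7.45, a change of 0.04. Within the 3 slides, which each held both tissues and all times but only 1 or 2 livers of a time, the 24 h difference was 0.28, 0.20 and 0.14.

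Pros1 had 2 probes above background on all livers. The brighter one gave 4.87, 4.28, 4.53 and 4.22 at 0 h and 4.83, 4.81, 4.90 and 4.60 at 24 h, 0.31 higher on average (SE 0.14, limma adjusted p = 0.453). The high value at 0 h in replicate 1 lay inside the range at 24 h. The other probe had a mean of 0.52 at 0 h, with a range of 0.26 to 0.88, and of 1.06 at 24 h, with a range of 0.95 to 1.12. These ranges do not overlap, and the change of 0.54 had an unadjusted limma p of 0.00275, not adjusted over probes. At 48 h the probes gave 0.11 and 0.34.

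The contact system, which starts coagulation on charged surfaces and releases bradykinin, showed small changes. Its 4 members lay between -0.06 and 0.07 at 24 h and between -0.12 and 0.05 at 48 h. F11 differed by -0.06 and -0.12, F12 by -0.04 and 0.04, and Klkb1, which encodes plasma prekallikrein, by 0.01 and 0.04. Kng1 differed by 0.07 and 0.05 on its brightest probe. Its other 2 probes gave 0.27 and 0.09 at 24 h, and 0.18 and 0.21 at 48 h. At 0 h Kng1 was at 9.81, 9.47, 9.42 and 9.33, and F11 at 4.06, 4.21, 4.08 and 4.30, so the replicate that was highest in one was lowest in the other.

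Vwf had the smallest limma p of any member at both times, on the brightest probe of each gene. Dimmer probes of Pros1 at 24 h, and of Masp2 and Kng1 at 48 h, had a smaller unadjusted p than Vwf. The liver values of Vwf were 0.71, 0.35, 0.87 and 0.19 at 0 h, 1.02, 0.92, 0.83 and 0.95 at 24 h, and 0.74, 0.90, 1.02 and 0.90 at 48 h (probe at mm9 chr6:125636551-125636610). The values at 0 h were spread out, with replicates 2 and 4 low, and the highest of them, replicate 3, lay inside the range of each later group. The change was 0.40 at 24 h (SE 0.13, 95% interval 0.10 to 0.69, limma adjusted p = 0.356) and 0.36 at 48 h (SE 0.13, 0.07 to 0.66, adjusted p = 0.658). The exact permutation p was 0.0571 at each time. Within slides the 24 h difference was 0.49, 0.05 and 0.70.

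Markers of megakaryocytes, platelets and endothelial cells were set beside Vwf. The summed linear level of the 6 megakaryocyte and platelet markers above background in liver, of 9 listed, ran from 0.977 to 1.84 at 0 h, from 1.77 to 2.95 at 24 h and from 1.84 to 2.42 at 48 h. Itga2b, Gp1bb and Gp5 were not above background. The 10 sinusoidal and vascular endothelial markers summed to 49.1 to 64.6 at 0 h, 49.0 to 59.0 at 24 h and 55.7 to 63.6 at 48 h. Clec4g, at 4.36 to 5.04, and Stab2, at 3.60 to 4.05, were the brightest of them, and the sum mostly follows these genes. The part of these cells in the Vwf values was not tested.

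The other cofactors and subunits had smaller estimates. At 0 h F5 was at 5.73, 5.43, 5.63 and 5.47, and F8 at -0.56, -0.80, -0.43 and -0.73. F5 differed by 0.15 at 24 h and 0.18 at 48 h, F8 by 0.13 and 0.02, and F13b, the carrier subunit of factor XIII, by 0.00 and -0.10. On the cell surface, F3 was at -0.63, -0.68, -0.48 and -0.97 at 0 h, and Thbd at -0.66, -1.40, -0.71 and -1.28. F3 differed by -0.19 at 24 h (95% interval -0.62 to 0.24) and 0.14 at 48 h. Thbd differed by 0.13 (-0.49 to 0.75) and 0.21 (-0.41 to 0.83). The livers at 24 h spread from -1.24 to -0.51 in F3 and from -1.57 to -0.18 in Thbd, wider than the changes.

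Among the serpins, Serpind1, which encodes heparin cofactor II, a thrombin inhibitor, had values of 6.86, 6.79, 6.87 and 6.77 at 0 h and of 6.96, 7.08, 6.91 and 6.97 at 24 h (probe at mm9 chr16:17343544-17343603). Every array at 24 h lay above every array at 0 h, by a narrow margin. The change was 0.16 (SE 0.08), with exact permutation p = 0.0286, the smallest 4 against 4 can give, and limma adjusted p = 0.464. At 48 h the values were 6.83, 6.98, 6.65 and 6.83, around the level at 0 h. Within slides the 24 h difference was 0.13, 0.21 and 0.17.

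Serpinc1, which encodes antithrombin, was at 9.41, 9.32, 9.28 and 9.22 at 0 h. It differed by -0.02 at 24 h (95% interval -0.16 to 0.12) and -0.04 at 48 h (-0.17 to 0.10). Its second, dimmer probe gave 0.15 and -0.07. Serpinf2, which encodes the main plasmin inhibitor, gave a change of 0.25 (limma adjusted p = 0.465), then of 0.19 (0.856). Plg, which encodes plasminogen, had values of 3.71, 3.34, 3.28 and 3.18 at 0 h, 3.54, 3.60, 3.81 and 3.50 at 24 h, and 3.50, 3.94, 3.57 and 3.61 at 48 h (probe at mm9 chr17:12591031-12591090). Replicate 1 at 0 h lay within the later groups and the other 3 lay below them. The change was 0.23 at 24 h and 0.27 at 48 h (SE 0.13, limma adjusted p = 0.770). A second probe gave 0.25 and 0.06, and within slides the 48 h difference was -0.03, 0.47 and 0.43.

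**Figure D3:**
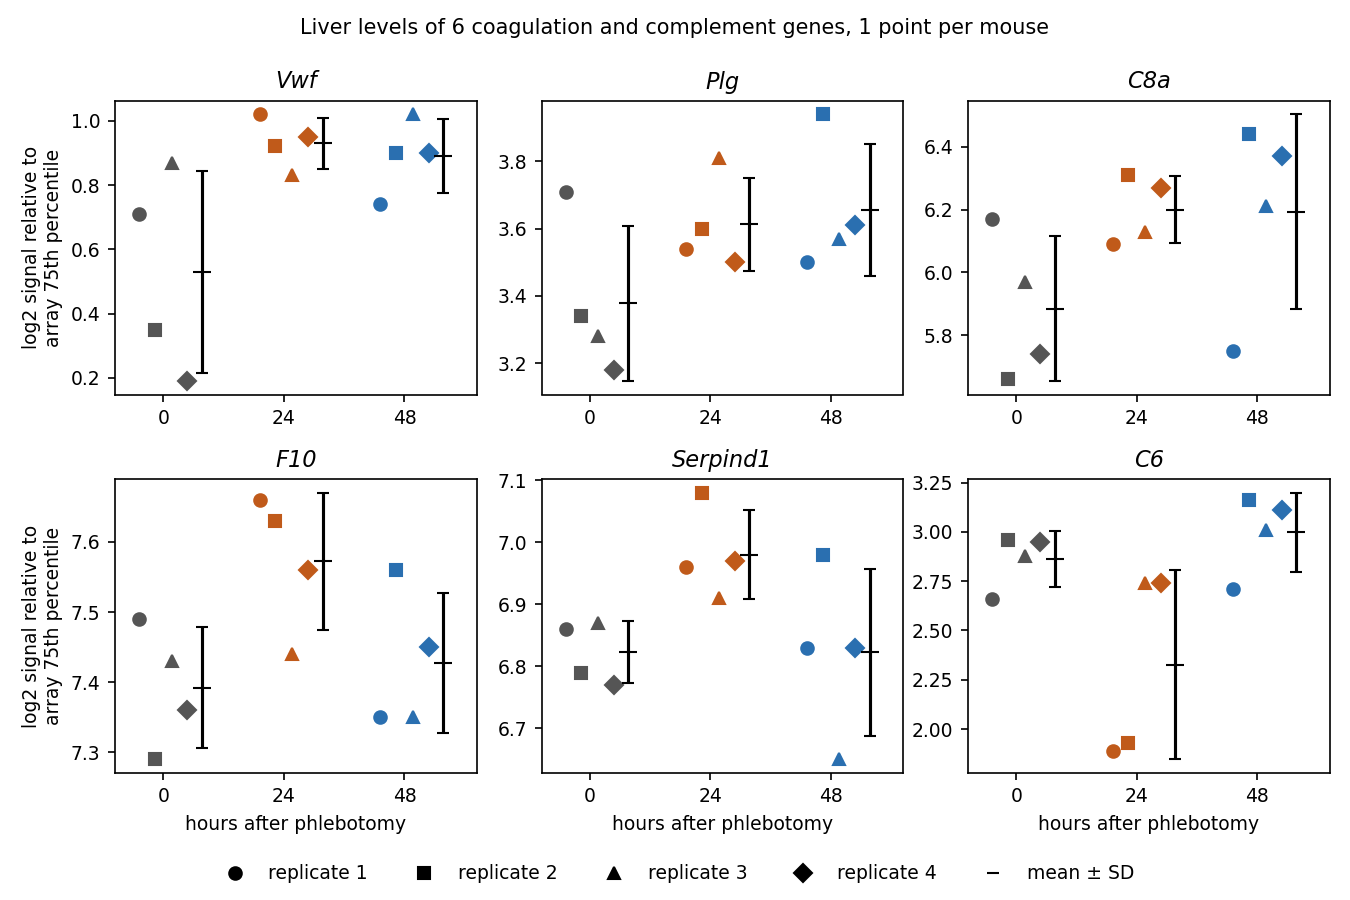
Liver levels of the 6 members named for the size of their test statistic or for groups that do not overlap, as log2 signal relative to the array's 75th percentile on the vertical axis, by hours after phlebotomy; each symbol is 1 mouse, and the bar beside each group is the mean ± SD of 4. Replicate 1 at 0 h lies high in Plg, C8a and F10, Serpind1 at 24 h sits just above the mice at 0 h, and C6 at 24 h splits into a pair near 1.9 and a pair at 2.74.

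Of the genes that begin the complement cascade, the lectins, their proteases and the classical proteases C1ra and C2, 6 members were measured. At 24 h their changes ran from -0.18 for C1ra to 0.13 for Mbl2, with 2 above 0 and 4 below, and at 48 h from -0.10 for Masp2 to 0.07 for Mbl2. The C1ra values of 5.36, 5.36, 5.56 and 5.77 at 24 h straddled the values of 5.60 to 5.73 at 0 h (limma adjusted p = 0.532). Masp2, the protease that cleaves C4 and C2, gave -0.12, -0.13 and -0.08 on its 3 probes at 24 h. At 48 h the same probes gave -0.10, -0.09 and -0.20, the last with an unadjusted limma p of 0.0149, not adjusted over probes. Masp1, a related protease, differed by -0.01 and 0.01 on its brightest probe. Its other probes above background on all livers gave 0.06, 0.20 and 0.22 at 24 h, and 0.02, 0.12 and 0.20 at 48 h. Mbl1 differed by 0.07 and 0.06. C2 differed by -0.07 and -0.04. At 0 h Mbl2 was at 7.68, 7.49, 7.46 and 7.31 and Mbl1, the other mannose-binding lectin, at 4.48, 4.09, 3.90 and 4.02, with replicate 1 highest in each.

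The terminal components assemble into the pore of the membrane attack complex. C6, the component that binds C5b first, had values of 2.66, 2.96, 2.88 and 2.95 at 0 h, 1.89, 1.93, 2.74 and 2.74 at 24 h, and 2.71, 3.16, 3.01 and 3.11 at 48 h (probe at mm9 chr15:4689842-4705241). At 24 h replicates 1 and 2 stood well below every other liver, while replicates 3 and 4 fell inside the range at 0 h. The change was -0.53 (SE 0.20, 95% interval -0.98 to -0.09, limma adjusted p = 0.393, exact permutation p = 0.0857). Between 24 and 48 h the difference was 0.67, with SE 0.20 and limma adjusted p = 0.502. Within slides the 24 h difference was -0.92, -0.94 and -0.21, and leaving out single arrays gave -0.67 to -0.39.

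The alpha and beta chains of C8 had estimates of opposite sign. C8a had values of 6.17, 5.66, 5.97 and 5.74 at 0 h, 6.09, 6.31, 6.13 and 6.27 at 24 h, and 5.75, 6.44, 6.21 and 6.37 at 48 h (probe at mm9 chr4:104488479-104488538). Replicate 1 at 0 h and replicate 1 at 48 h each lay within the other group. The change was 0.31 at both times (SE 0.15, limma adjusted p = 0.465 and 0.779), and its second probe gave 0.27 and 0.37. Within slides the 48 h difference was -0.16, 0.35 and 0.63. C8b, its neighbour on chromosome 4, gave -0.17 (limma adjusted p = 0.586) and -0.15 (0.876), with a second probe at -0.16 and -0.23. The difference between the C8a and C8b changes was not tested. C9, the component that forms the pore wall, was at 7.47, 7.13, 7.27 and 7.07 at 0 h and differed by -0.08 and -0.10.

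Cfi was at 8.01, 7.41, 7.77 and 7.39 at 0 h. Its change was 0.24 at 24 h, with limma adjusted p = 0.574, and 0.19 at 48 h, with 0.899. Cfd was the most variable member. Its liver values were -2.69, -1.02, -2.74 and -2.78 at 0 h, -5.69, -4.93, -0.62 and -2.86 at 24 h, and -2.90, -0.27, -2.03 and -0.99 at 48 h (probe at mm9 chr10:79355302-79355361). Replicates 1 and 2 at 24 h were the lowest of the 12 livers, replicate 3 of the same group was the second highest, and the groups overlapped throughout. The change was -1.22 at 24 h (SE 0.98, 95% interval -3.38 to 0.94) and 0.76 at 48 h (-1.40 to 2.92). Within slides it was -3.84, -2.19 and 1.04 at 24 h, and -1.04, 1.59 and 1.79 at 48 h.

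Fat cell genes were set beside Cfd. Of 7 adipocyte markers, 6 were above background in liver, Adipoq was not, and their summed linear level ran from 140 to 227 at 0 h, 102 to 229 at 24 h and 112 to 231 at 48 h. Pck1, at 6.46 to 7.82 over the 12 livers, was by far the brightest of the 6. The sum therefore mostly follows Pck1 and says little of the other markers. The markers did not move one way. Cidec and Plin1 were at -3.25 and -4.10 on liver 24 h replicate 1 and at -3.18 and -3.54 on replicate 2, the lowest values of each gene over 12 livers. Fabp4, a fatty acid binding protein, was at 3.70 and 3.08 on the same arrays, its highest values, against 1.96 to 2.50 on the other 10. Pck1 was at 6.46, its lowest value, and 7.32, and Lep at -0.75 and -1.08, while Retn was at -4.15 and -3.84 within a range of -4.22 to -3.72 over all livers. On liver 48 h replicate 2, where Cfd was highest, Cidec was -2.45. In marrow, Cfd ran from 4.21 at 48 h replicate 1 and 3.97 at 24 h replicate 1 down to -0.64 at 24 h replicate 3. Cidec was -0.17, -0.22 and -4.75 on the same 3 arrays, its highest and lowest marrow values, and Plin1 was -2.03, -2.88 and -6.45, whereas Adipoq was 2.59, 2.62 and 1.96 and Fabp4 4.08, 4.06 and 3.28. The part of fat tissue in the Cfd values was not tested.

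**Figure D4:**
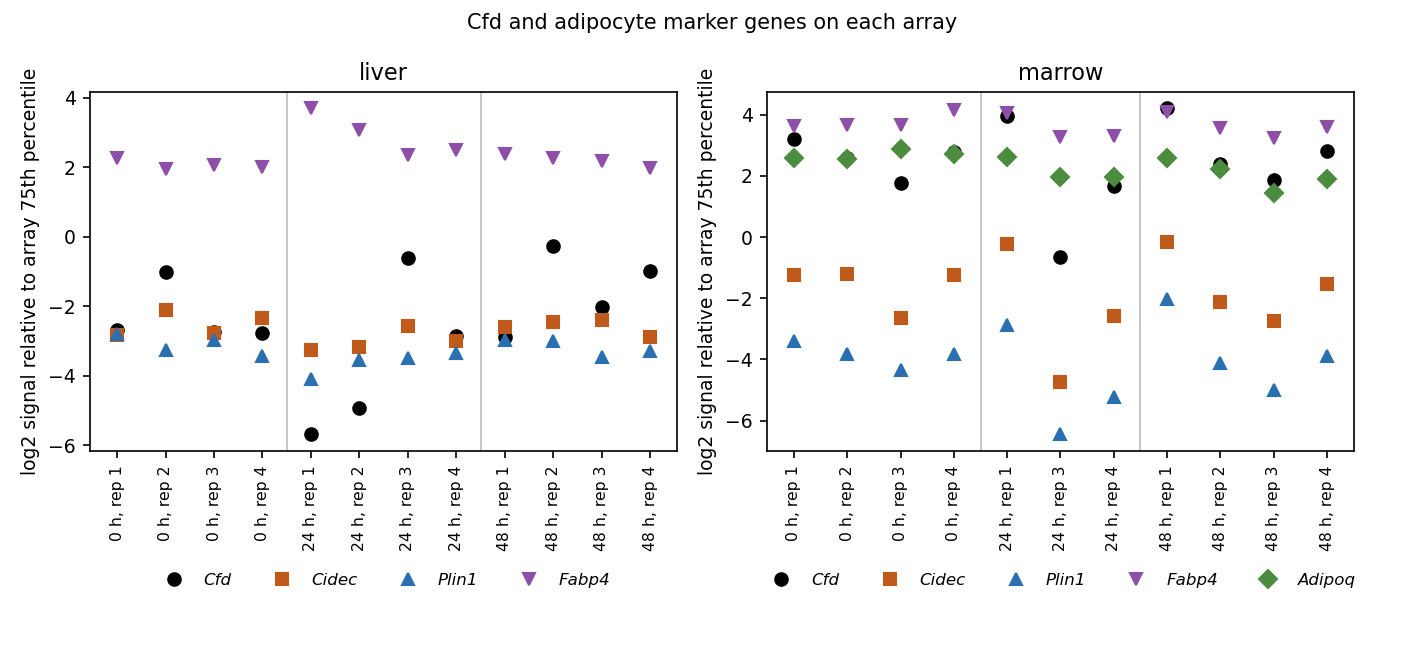
Cfd with the adipocyte markers Cidec, Plin1, Fabp4 and, in marrow, Adipoq on each array, as log2 signal relative to the array's 75th percentile on the vertical axis, for 12 livers (left) and 11 marrows (right), grouped by time with vertical lines between times. Arrays with the lowest Cfd, liver 24 h replicates 1 and 2 and marrow 24 h replicate 3, also have the lowest Cidec of their tissue, while Fabp4 is highest on those same 2 livers.

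On some livers most members deviated the same way. Relative to the mean at 0 h, 29 of 32 members were higher on liver 48 h replicate 2 (median deviation 0.17) and 27 of 32 on liver 0 h replicate 1 (0.11). The count was 26 on liver 48 h replicate 4 (0.05), and at 24 h 25 on replicate 4 (0.08) and 24 on replicate 3 (0.09). Only 8 of 32 were higher on liver 48 h replicate 1 (-0.09), liver 0 h replicate 4 (-0.10) and liver 0 h replicate 2 (-0.04), and the other 4 livers had 14 to 18. Over all genes the median deviation of the 12 livers ran from -0.07 to 0.04. Within a time group the members had a median SD of 0.14, against 0.18 over all genes, and 20 of them spanned less than 0.5 over the 12 livers, as did 37.8% of all genes.

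The other genes of both systems gave 0 calls in liver as well. Of 26 other coagulation and fibrinolysis genes 23 were tested, with estimates above 0 for 18 at 24 h (median 0.13) and 14 at 48 h (median 0.05). Fga, which encodes the fibrinogen alpha chain, had a mean of 6.75 ± 0.29 before bleeding (SD, n = 4), then 7.20 ± 0.10 at 24 h (limma adjusted p = 0.393) and 7.15 ± 0.33 by 48 h (0.730), and Fgg, the gamma chain, differed by 0.05 at 24 h. Procr, the endothelial receptor of protein C, and S100a10, a plasminogen receptor, were lower at 48 h without overlap, with changes of -0.38 and -0.40 (adjusted p = 0.556 and 0.651), against 2.67% of all genes lower without overlap.

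Of 33 other complement genes 31 were tested in liver, with 21 estimates above 0 at each time and medians of 0.07 and 0.06. C3 differed by 0.09 and 0.06. Hc, which encodes C5, differed by 0.34 and 0.30 (adjusted p = 0.478 and 0.828), and C1s1 by 0.05 and 0.06. C8g, the third chain of C8, was lower at 24 h without overlap, 7.63 ± 0.19 against 7.94 ± 0.09 (-0.31, limma adjusted p = 0.363), as was Cd55, a membrane inhibitor of the convertases (-0.49, adjusted p = 0.344); 3.66% of all genes were lower without overlap at 24 h. C7 differed by -0.44 at 24 h (adjusted p = 0.339). Of the 7 genes of the terminal pathway, C6, C7, C8b, C8g and C9 thus had estimates below 0 at 24 h and Hc and C8a above 0. Cpn1, a carboxypeptidase that inactivates anaphylatoxins, was higher at 48 h without overlap (0.13), against 1.67% of genes.

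Acute phase genes varied widely beside these lists. All 14 were tested in liver: at 24 h 12 estimates were above 0, with a median of 0.46, 6 had an unadjusted p under 0.05 and 0 were called. Their summed linear level ran from 1490 to 4190 at 0 h, 2790 to 4560 at 24 h and 1760 to 3620 at 48 h, and their part in the values of the members was not tested.

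In marrow 16 members were tested, 14 of them above background on all 11 arrays, F2 on 10 and F12 on 8. At 24 h limma called 0 of 16, beside 0.577% of the 21496 genes tested, 0.358% higher and 0.219% lower. At an unadjusted p under 0.05 there were 3 members (C6, Kng1 and Serpinc1), against 11.9% of genes. Groups did not overlap for 2 members, Kng1 and Pros1, both higher, against 8.10% of all genes higher and 13.4% in either direction. At 48 h 0 of 16 were called, beside 1.51% of genes, 1.15% higher and 0.363% lower. F3 alone had an unadjusted p under 0.05, against 18.0% of genes, and 0 members were free of overlap, against 12.4% of genes, 7.53% higher and 4.86% lower.

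Kng1 had marrow values of 2.42, 2.17, 2.38 and 2.20 at 0 h, 2.68, 2.55 and 2.47 at 24 h, and 2.45, 2.48, 2.49 and 2.33 at 48 h (probe at mm9 chr16:23081700-23081759). The 3 arrays at 24 h lay just above those at 0 h, and 48 h overlapped both. The change was 0.27 at 24 h (SE 0.09, limma adjusted p = 0.261, exact permutation p = 0.0571) and 0.15 at 48 h. Its other 2 probes gave 0.26 and 0.20 at 24 h, and within the 2 slides that held both times the difference was 0.39 and 0.31. Pros1 was at 2.37, 2.36, 2.37 and 2.38 at 0 h and at 2.65, 2.56 and 2.49 at 24 h, which is 0.20 higher (SE 0.10, limma adjusted p = 0.478), with 0.14 on a second probe. The arrays at 0 h were nearly identical and those at 24 h all lay higher.

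C6 and Serpinc1, which are dim in marrow, had estimates below 0 at 24 h. C6 had marrow values of -4.43, -4.20, -4.46 and -3.95 at 0 h and -4.42, -5.32 and -4.85 at 24 h, a mean difference of -0.60 (SE 0.20, limma adjusted p = 0.259). Serpinc1 had -2.77, -3.28, -4.25 and -4.08 at 0 h and -4.67, -4.23 and -4.63 at 24 h, where the mean differed by -0.92 (SE 0.32, limma adjusted p = 0.282). The groups overlapped in each, and the lowest probes called above background lay between -5.82 and -4.80 on marrow arrays. Beside these values, Alb was at -0.24 on marrow 0 h replicate 1, where Serpinc1 was highest, and from -6.28 to -2.04 on the other 10 arrays. Of 15 hepatocyte markers 7 were not above background in marrow, Apoa1, Apob and Ttr among them. The other 8 summed to 29.6 to 37.6 at 0 h, 25.0 to 27.0 at 24 h and 23.1 to 29.6 at 48 h. Trf, at 4.27 to 5.01, was by far the brightest of these, so their sum mostly follows Trf and says little of Alb. The part of liver RNA in these changes was not tested.

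The cell-surface pair was lowest at 48 h in marrow. F3 had values of -3.16, -3.31, -3.23 and -3.74 at 0 h, -3.50, -2.97 and -3.49 at 24 h, and -4.00, -4.15, -3.56 and -3.60 at 48 h (probe at mm9 chr3:121437717-121437776). Only replicate 4 at 0 h reached into the range at 48 h. The change from 0 to 48 h was -0.47 (SE 0.18, limma adjusted p = 0.220, exact permutation p = 0.0857), and within slides it was -0.76, -0.63 and 0.14. Thbd had 1.41, 1.37, 1.50 and 1.38 at 0 h, 1.58, 1.45 and 1.44 at 24 h, and 1.26, 1.38, 1.24 and 1.27 at 48 h (probe at mm9 chr2:148230235-148230294). Replicate 2 at 48 h reached the lower edge of the values at 0 h, and the change was -0.13 (SE 0.07, limma adjusted p = 0.341). Between 24 and 48 h both genes were lower without overlap, with a change of -0.51 for F3 and -0.21 for Thbd (limma adjusted p = 0.776 and 0.762). In that comparison 0 of 16 members and 0.00465% of genes were called, 4 members (F3, Thbd, F12 and C6) and 6.38% of genes had an unadjusted p under 0.05, and 2.43% of genes were lower without overlap, 5.96% in either direction.

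On the brightest probe of each gene, the remaining marrow members overlapped at all times. Vwf had a mean of 3.14 ± 0.31 before bleeding (SD, n = 4), 3.10 ± 0.29 at 24 h (n = 3) and 3.21 ± 0.32 after 48 h (n = 4). Its probes disagreed at 48 h, with 0.07 on the brightest against 0.63 and 0.39 on the others. The probe with 0.63 ranged from -1.55 to -0.80 at 0 h, -1.07 to -0.70 at 24 h and -0.67 to -0.30 at 48 h. There the 48 h arrays overlapped neither earlier time. The unadjusted limma p against 0 h was 0.00375, not adjusted over probes. F5 differed by -0.01 and -0.21, F10 by 0.19 and 0.06, F8 by 0.10 and 0.08, C1ra by 0.05 and 0.01, and C2 by -0.44 and -0.15. F2 differed by 0.01 and -0.14, F12 by 0.24 and -0.39, Serpinf2 by 0.07 and 0.25, and Cfd by -0.92 (SE 0.91) and 0.24 (SE 0.85).

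Of the other coagulation and fibrinolysis genes, 20 of 26 were tested in marrow and 1 was called at each time, 0 higher and 1 lower. This was Gas6, a vitamin K-dependent ligand of the TAM receptors, which fell from 4.18 ± 0.12 in unbled mice (SD, n = 4) to 3.34 ± 0.15 at 24 h (n = 3). The estimate was -0.83 (SE 0.12, limma adjusted p = 0.0135). At 48 h it was at 3.45 ± 0.19 (n = 4), an estimate of -0.73 (SE 0.11, limma adjusted p = 0.0136). All later arrays, at most 3.50 at 24 h and 3.68 at 48 h, lay below the lowest value at 0 h, 4.00. The call at 24 h was lost without 0 h replicate 2 (limma adjusted p = 0.0565), 24 h replicate 1 (0.0836) or 24 h replicate 4 (0.0800). The call at 48 h was lost without 0 h replicate 2 (0.0525) or 0 h replicate 3 (0.0511). Both calls were also lost with the replicate number as a block (limma adjusted p = 0.102 and 0.0735) and with no filter on dim probes (0.0585 and 0.0571), while the estimates ran from -0.95 to -0.77 at 24 h and from -0.80 to -0.66 at 48 h over 24 alternatives. Fgb, the fibrinogen beta chain, ran from -5.09 to -2.05 at 0 h and was not above background on any of the 3 arrays at 24 h (limma adjusted p = 0.0905). At 48 h it was above background on 1 of 4, at a mean of -5.29 ± 0.93 (limma adjusted p = 0.258). The hepatocyte markers Alb and Ahsg were also lower at 24 h without overlap, by estimates of -2.70 and -2.36, and the estimates of all 8 measured were below 0. Their part in the Fgb values was not tested.

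Of the other complement genes, 27 of 33 were tested in marrow and 0 were called at either time. At 24 h 7 had an unadjusted p under 0.05. The genes of C1q, the recognition unit of the classical pathway made by macrophages, were lower without overlap, with changes of -0.25 for C1qa, -0.38 for C1qb and -0.38 for C1qc (limma adjusted p = 0.267, 0.140 and 0.227). Fcna, Colec11 and Itgax were also lower without overlap and C1s1, Serping1 and Cr1l higher, against 5.29% of genes lower and 8.10% higher. At 48 h Cfp, which encodes properdin, was lower (-0.30) and Cd59a, an inhibitor of the membrane attack complex, higher (0.45), each without overlap (adjusted p = 0.135 and 0.0822). Macrophage markers were set beside C1q and Gas6. Of 9, the 8 above background, all but Clec4f, summed to 61.9 to 70.5 at 0 h, 50.1 to 57.4 at 24 h and 47.5 to 54.2 at 48 h. Their part in the C1q and Gas6 values was not tested.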

How the data were processed

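Spot intensity was deposited as Agilent Feature Extraction 10.10.1.1 output, per the submitters' processing notes; per the file headers the processed signal is background-subtracted and not scaled between arrays. The authors also deposited values on a log2 scale, apparently normalized within each tissue by a method not given in the sources used here, which served as an alternative. Probe positions are mm9, per the file headers. Here log2 of the processed signal minus the array's 75th percentile was used, without control spots, outlier spots or marrow 24 h replicate 2. Probes had to pass the scanner's background flag throughout at least 1 group, and a gene took its kept probe with the highest mean. Changes were fitted with limma 3.58.1 in R 4.3.3 (lmFit, eBayes, two-sided) over 12 livers, 11 marrows, or 8 unbled arrays for the tissues, adjusted by Benjamini-Hochberg over all genes at 0.05, and checked on simulated data. For "at least" folds the liver mean was set against the marrow signal or, where larger, the dimmest signal flagged as above background on that array. Values per array are given for members whose groups did not overlap in liver, for the 3 largest limma statistics per tissue and time, and, at 0 h, for the members of highest and lowest liver level in each role. Other pathway genes are named where called or free of overlap, at most 5 a comparison. Pros1, the later values of Cfd and the pathway genes named beyond this were chosen after their values were seen. Alternatives covered scaling, background, filter, probes, slide, replicate number, variance model, weights and each array left out. The members and lists were chosen with earlier results of these data known.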

Additional observations from a re-analysis of the deposited data

Results flagged for a closer look

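Among 128 groups of 4 livers or 4 marrows examined for a single array far from the other 3, 4 were set apart by Dixon's test, where 1 in 20, or 6.40, would be set apart by chance. On liver 24 h replicate 3 F7 was at 3.06, against 2.96 to 2.97 on the other 3. On liver 48 h replicate 2 F12 was at 6.69, against 6.52 to 6.55. On liver 0 h replicate 4 Masp1 was at 4.05, against 4.14 to 4.16. On liver 0 h replicate 2 Cfd was at -1.02, against -2.78 to -2.69.

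On marrow 24 h replicate 2, which entered no comparison, the median member stood at 8.79% of its mean liver level, while the other marrow arrays gave 0.0510 to 0.110%.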

How the results depend on the processing

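Over 24 alternatives, 0 members were called in each comparison within liver or within marrow. The changes of the named members kept their sign, except C6 (0.18) and Serpinc1 (1.72) in marrow at 24 h when replicate 2 of that group was included; Kng1 was then 1.31. Between unbled tissues 32 members were called in 18 of 19 alternatives, and 15 of 15 tested when every array had to be above background; the authors' values, normalized per tissue, were not run there. Over all genes, leaving out single arrays gave 0 to 2 calls in liver at 24 h (2 without 24 h replicate 4), 0 to 9 at 48 h (9 without 48 h replicate 1) and 0 to 1 between them. In marrow it gave 38 to 145 at 24 h, 99 to 304 at 48 h and 0 to 19 between them (19 without 24 h replicate 3). With no filter on dim probes marrow gave 32, 76 and 0 calls, with trend and robust variance 202, 525 and 0, and with array weights 640 and 1452. With only the groups compared it gave 76, 178 and 0. The slide as a block gave 81 at 48 h and 0 between the later times, normexp correction 0 between them, and including marrow 24 h replicate 2 gave 214 at 24 h. Deviations of same-numbered arrays correlated from -0.268 to 0.153 in liver, from -0.253 to 0.203 in marrow and from 0.0711 to 0.146 between unbled liver and marrow (3 of 4 over 0.1), where differently numbered ones gave -0.107 to 0.0573 (0 of 12 over 0.1). Each unbled array thus correlated best with its own number in the other tissue, a hint from the data and not the design. Every same-numbered pair of unbled liver and marrow also shared a slide, so number and slide are largely confounded. The differently numbered pairs that shared a slide gave -0.0464 and -0.0299. Since not every pair exceeded 0.1, the samples were taken to share only a number. The replicate block gave 28, 85 and 0 genes in marrow and moved 0 calls of members. Gas6 in marrow lost its call with no filter on dim probes (limma adjusted p = 0.0585 at 24 h and 0.0571 at 48 h) and with the replicate block (0.102 and 0.0735). The causes of these shifts were not tested.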
